A study of Saccharomyces cerevisiae with 16 samples.

Results

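The 41 nuclear genes that encode the oxidative phosphorylation machinery of *Saccharomyces cerevisiae* were followed in wild-type and *lsm1∆* cells before and during exposure to hydroxyurea (HU). The rule that chose them uses gene names and no measured value, although it was set with earlier results of these data known. They comprise 3 NADH dehydrogenases, 4 subunits of succinate dehydrogenase, 9 of the cytochrome bc1 complex, 2 cytochrome c isoforms, 9 subunits of cytochrome c oxidase and 14 of the ATP synthase, out of 7126 genes in each expression table. All 41 were found and all passed the filter on low values (at least 1 FPKM in at least 2 libraries). RNA-seq had been performed on BY4741 cells grown in YPD, a rich glucose medium, with the *LSM1* gene intact (WT) or deleted (*lsm1∆*, same background). Both strains were sampled untreated and after 1, 2 and 4 h in 200 mM HU, an inhibitor of ribonucleotide reductase that stalls DNA replication, with 2 replicates for each of 8 conditions and 16 libraries in all. The deletion was studied in 1 strain. The study's methods call the replicates technical, so the p-values measure the spread between these libraries, which may be technical only.

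Lsm1 is a subunit of the cytoplasmic Lsm1-7 ring, which with Pat1 binds deadenylated mRNAs and promotes their decapping and decay from the 5′ end. Budding yeast lacks the proton-pumping complex I of other eukaryotes, and electrons enter its respiratory chain through single-polypeptide NADH dehydrogenases and succinate dehydrogenase, pass through ubiquinone, the bc1 complex and cytochrome c to cytochrome c oxidase, and the resulting proton gradient drives the ATP synthase. Transcription of most of the nuclear genes is repressed by glucose and activated through the CCAAT-binding Hap complex, while a few core subunits are encoded in mitochondrial DNA.

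*LSM1* itself was at 111 to 181 FPKM in the 8 WT libraries and at 0 to 0.761 FPKM in the 8 *lsm1∆* libraries, which matched the labels. FPKM are fragments per kilobase of transcript, scaled to the number of mapped fragments. The sum of FPKM over all genes was between 1.90e+06 and 2.68e+06 per library, and the relative depth, recovered from the smallest steps between low values, was between 0.885 and 1.14. The 4 known HU-induced genes (*HUG1*, *RNR2*, *RNR3* and *RNR4*) rose in both strains at each HU time. Their levels in HU were not the same in the strains. At 4 h *HUG1* was lower in *lsm1∆* (log2 ratio −0.69 ± 0.15 (SE), limma adjusted p = 0.00244). *RNR3* was higher at that time (1.25 ± 0.18, limma adjusted p = 0.000238), and the ratios of *RNR2* and *RNR4* lay between these. The ratio of *lsm1∆* to WT was not centred on equality: its median over the 6977 genes tested was 0.13, 0.04, 0.17 and 0.37 on the log2 scale at 0, 1, 2 and 4 h. Results are therefore given as deposited and again after each library was centred on its own median. In RNA from whole cultures, fewer cells of a kind and less RNA per cell cannot be told apart.

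The oxidative phosphorylation genes were more abundant in *lsm1∆* cells than in WT cells at all 4 times. Together they amounted to 9011 and 8839 FPKM in the untreated WT libraries and to 13147 and 16068 FPKM in the untreated *lsm1∆* libraries. At 4 h of HU the sums were 10702 and 10127 FPKM in WT, while the *lsm1∆* libraries reached 24039 and 29662 FPKM. In WT the sum therefore stayed between 8724 and 10767 FPKM in all 8 libraries, and no *lsm1∆* library was within that range. The members took between 0.358% and 0.56% of all FPKM in WT libraries and between 0.49% and 1.38% in *lsm1∆* libraries.

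Each gene was tested by limma on log2(FPKM + 1), and called at an adjusted p-value below 0.05 over all 6977 genes. In untreated cells 27 of the 41 genes were called higher in *lsm1∆* and 1 lower, where 22.2% and 6.32% of all genes were called higher and lower. At 1 h of HU 36 were higher and 1 lower (23.2% and 13.8% of all genes), at 2 h 37 were higher (32% of all genes), and at 4 h 39 were higher (49.8% of all genes). The median log2 ratio of the members was 0.72, 1.09, 1.12 and 1.24 at 0, 1, 2 and 4 h, a median fold on this scale of 1.65 in untreated cells and 2.35 at 4 h. The member with the highest ratio was *CYC7* at every time, and the lower call belonged to *NDE1*. For 33, 39, 39 and 40 of the members both *lsm1∆* libraries were above both WT libraries, as were 45.9%, 35.5%, 51.9% and 66.3% of all genes. The same 27 genes were called higher at all 4 times. The share of all genes called at all 4 times was not counted, but cannot exceed the 22.2% called higher in untreated cells.

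After centring, 26, 36, 32 and 32 members were called higher at 0, 1, 2 and 4 h, where 16.3%, 23.2%, 20.6% and 21.9% of all genes were, and the median log2 ratio was 0.63, 1.09, 0.95 and 0.81. *NDE1* was the single gene called lower on this scale at 0 and 1 h (9.42% and 13.9% of all genes). The increase of the median from 1 to 4 h was thus seen as deposited but not after centring. Leaving out any 1 of the 4 libraries compared kept 17 of the 28 calls in untreated cells, 31 of 37 at 1 h, 31 of 37 at 2 h and 34 of 39 at 4 h. The untreated median was 0.51 without replicate 2 of untreated *lsm1∆* and up to 0.89 with another library left out.

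**Figure D1:**
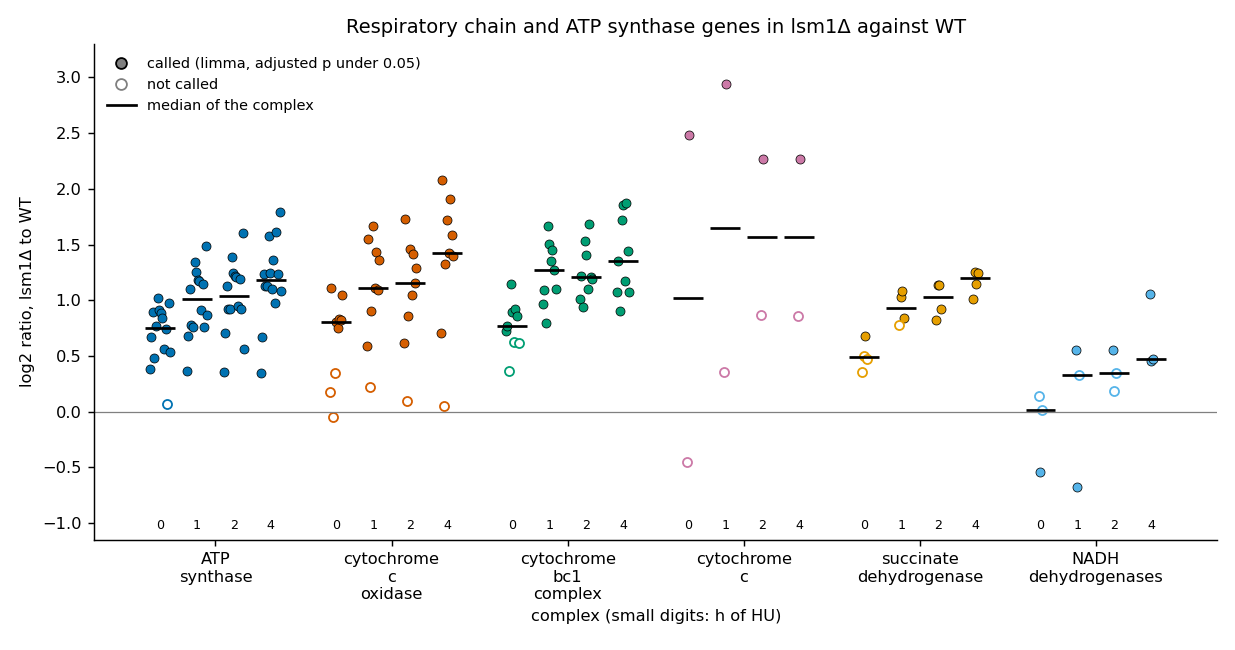
Log2 ratio of *lsm1∆* to WT for each of the 41 genes (points), by complex and by time in HU, from limma on log2(FPKM + 1), with filled points called at an adjusted p below 0.05, open points not called and bars at the median. Nearly all points lie above 0, and in untreated cells *CYC7* is highest at 2.48 and *NDE1* lowest at −0.54.

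The members' upstream regions share a sequence that was not used to choose them. The core of the Hap complex binding site, CCAAT, occurred on either strand within 300 bases before the start codon in 35 of the 41 genes (85.4%), and in 41.8% of 6001 nuclear protein-coding genes of the RefSeq R64 (sacCer3) genome. It was present in all 14 ATP synthase genes, all 4 succinate dehydrogenase genes, 8 of 9 cytochrome c oxidase genes (not *COX4*), 7 of 9 bc1 genes (not *COR1* and *CYT1*) and 2 of 3 NADH dehydrogenase genes (not *NDE2*). Neither cytochrome c gene had it in this window. Genes with low ratios, such as *NDE1* and *ATP1*, have CCAAT too. The following stretches are shown because they belong to genes with high ratios in 4 complexes, with CCAAT, or ATTGG where it lies on the opposite strand, in capitals.
COX5A, chrXIV:531544-531570 (+): gcaaaaatcgtCCAATagacgttttcc
COX5A, chrXIV:531569-531595 (+): cctcgtttgtgATTGGccctacgtttt
QCR7, chrIV:1496714-1496740 (−): tcttgttttgaCCAATcaggagcgacg
ATP20, chrXVI:599690-599716 (+): tcttattcctgATTGGctgaaagaaaa
SDH4, chrIV:817706-817732 (+): taagcattgagCCAATcgctgctgttt

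The motif did not separate genes by their ratio across the genome. At 4 h the log2 ratio between the strains had a median of 1.25 in the 35 members with CCAAT and 0.97 in the 6 members without it. Among all protein-coding genes tested it was 0.40 in the 2491 with CCAAT and 0.39 in the 3416 without. *COX5B*, the isoform of *COX5A* that is induced when oxygen is low, also has CCAAT. Both genes have ATTGTT too, the core of the site of the hypoxic repressor Rox1, a motif added after the values had been seen. ATTGTT occurred on either strand in 17 of the 41 members (41.5%) and in 34.1% of all genes. In *COX5A* it lies on the opposite strand, and neither cytochrome c gene, *CYC7* included, has it in this window. The first CCAAT of *COX5B* in this window and its ATTGTT on the coding strand are given for comparison with *COX5A*.
COX5B, CCAAT, chrIX:154964-154990 (+): catgacactcaCCAATttctttttttg
COX5B, ATTGTT, chrIX:154987-155014 (+): tttgattttgtATTGTTcgataaggcaa

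Of the enzymes through which electrons enter the chain, *NDE1* was the only gene called lower in *lsm1∆*, untreated and at 1 h. *NDE1*, which encodes the main enzyme oxidising cytosolic NADH, was at 190 and 196 FPKM in untreated WT and at 117 and 149 FPKM in untreated *lsm1∆*. Both *lsm1∆* libraries were below both WT libraries (log2 ratio −0.54 ± 0.17 (SE), limma adjusted p = 0.0367), and this was so at 1 h too, with 143 and 164 FPKM in WT against 86.7 and 105 in *lsm1∆* (−0.68 ± 0.17, limma adjusted p = 0.0104). By 4 h the order had turned, with 152 and 136 FPKM in WT and 180 and 217 in *lsm1∆* (0.46 ± 0.17, limma adjusted p = 0.0407). After centring, the 4 h ratio of *NDE1* was 0.03. Each of these *NDE1* calls was lost when 1 of the libraries was left out.

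*NDE2*, the second external enzyme, was a low-abundance transcript, at 3.20 and 3.18 FPKM in untreated WT and at 3.57 and 2.90 in untreated *lsm1∆*. After 4 h in HU it was at 5.73 and 5.54 FPKM in WT and at 8.02 and 8.35 in *lsm1∆* (0.47 ± 0.17, limma adjusted p = 0.0339), a call that was lost with 1 library left out and was 0.05 after centring. *NDI1*, the enzyme on the matrix side, was at 26.0 and 20.5 FPKM in untreated WT and at 24.8 and 26.3 in untreated *lsm1∆*, where the groups overlapped. *NDI1* was called higher in *lsm1∆* at 1 and 2 h, calls that were lost with 1 library left out. At 4 h its 2 *lsm1∆* libraries (55.4 and 64.4 FPKM) were above both WT libraries (27.1 and 29.4 FPKM), with a log2 ratio of 1.06 ± 0.19 (limma adjusted p = 0.00081).

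Succinate dehydrogenase passes electrons from succinate to ubiquinone. As deposited, 1 of its 4 genes was called higher in untreated *lsm1∆*, 3 of 4 at 1 h and 4 of 4 at 2 and 4 h. The median log2 ratios on that scale were 0.49, 0.93, 1.03 and 1.20. *SDH3*, a membrane anchor subunit, was the one called in untreated cells, at 111 and 117 FPKM in WT and at 157 and 212 in *lsm1∆* (0.68 ± 0.15, limma adjusted p = 0.00721). *SDH1*, the flavoprotein subunit, was at 23.3 and 21.3 FPKM in untreated WT and at 20.1 and 41.2 in untreated *lsm1∆*, so that one *lsm1∆* library was below and the other above both WT libraries. At 4 h *SDH1* was at 37.7 and 41 FPKM in WT and at 69.9 and 92.3 in *lsm1∆* (1.01 ± 0.28, limma adjusted p = 0.0106), with no overlap, although this call was lost with 1 library left out. *SDH2*, the iron-sulfur subunit, and *SDH4*, the other anchor, both had a log2 ratio of 1.25 at 4 h. Of the 4 genes, only *SDH4* was called at 4 h in the test of whether HU acted differently in the strains (0.77 ± 0.23, limma adjusted p = 0.0312), and none was at 1 or 2 h, or after centring (*SDH4* limma adjusted p = 0.214 at 4 h).

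All 9 bc1 complex genes were called higher in *lsm1∆* at 1, 2 and 4 h, and 6 of 9 in untreated cells, with median log2 ratios of 0.77, 1.27, 1.20 and 1.35 from 0 to 4 h. *QCR7*, a small subunit needed for assembly of the complex, was at 247 and 232 FPKM in untreated WT and at 462 and 608 in untreated *lsm1∆* (1.14 ± 0.14, limma adjusted p = 0.000409). By 4 h it was at 296 and 287 FPKM in WT and at 886 and 1047 in *lsm1∆* (1.72 ± 0.14, limma adjusted p = 4.51e-06). The groups were apart at both times, and the WT libraries moved little between them.

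*QCR10*, another small subunit, had the highest bc1 ratio at 4 h, with 282 and 295 FPKM in WT and 1001 and 1123 in *lsm1∆* (1.87 ± 0.19, limma adjusted p = 1.89e-05). *QCR6*, an acidic subunit that contacts cytochrome c1, had the lowest, with 208 and 233 FPKM in WT and 362 and 468 in *lsm1∆* (0.90 ± 0.21, limma adjusted p = 0.00381), and was not called at 4 h after centring (0.48). The redox-active subunits were between these: *RIP1*, the Rieske iron-sulfur protein, at 1.44 ± 0.23 and *CYT1*, cytochrome c1, at 1.07 ± 0.23, as were the core proteins *QCR2* at 1.35 ± 0.21 and *COR1* at 1.07 ± 0.19.

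The 2 cytochrome c isoforms showed different patterns. *CYC7*, the isoform expressed at low oxygen and in some stresses, was at 10.2 and 5.0 FPKM in untreated WT and at 36.9 and 54.0 in untreated *lsm1∆* (2.48 ± 0.28, limma adjusted p = 0.000307). At 4 h it was at 73.3 and 61.7 FPKM in WT and at 294 and 367 in *lsm1∆* (2.27 ± 0.28, limma adjusted p = 7.42e-05). The strains did not overlap at any time, and both rose in HU. *CYC1*, the isoform that predominates in air, was at 122 and 176 FPKM in untreated WT and at 72.1 and 158 in untreated *lsm1∆*, which overlapped (−0.45 ± 0.39, limma adjusted p = 0.428). After 4 h it was at 132 and 149 FPKM in WT and at 198 and 331 in *lsm1∆* (0.86 ± 0.39, limma adjusted p = 0.0824). *CYC1* was not called between the strains at any time, and its SE was the largest of the 41 genes.

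Per kilobase, *CYC1* exceeded *CYC7* by a ratio of 12.0 and 35.1 in the untreated WT libraries, which fell to 1.80 and 2.41 at 4 h. In *lsm1∆* the ratio was 1.96 and 2.92 untreated and 0.673 and 0.902 at 4 h, so that *CYC7* was then the more abundant isoform mRNA. The coding sequences of *CYC1* and *CYC7* share at most 35 identical bases in a row, fewer than the 50-base reads.

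Cytochrome c oxidase had 6 of 9 genes called higher in untreated *lsm1∆* cells and 8 of 9 at 1, 2 and 4 h, with median log2 ratios of 0.81, 1.11, 1.16 and 1.43. *COX5B* was not called at any time, and *COX4* and *COX6* were not called in untreated cells. *COX5A*, the isoform used in air, was at 138 and 137 FPKM in untreated WT and at 272 and 329 in untreated *lsm1∆* (1.11 ± 0.14, limma adjusted p = 0.000409). In the 4 h samples it was at 97.0 and 114 FPKM in WT and at 407 and 494 in *lsm1∆* (2.08 ± 0.14, limma adjusted p = 1.52e-06), the second highest ratio of the 41 after *CYC7*. WT fell below and *lsm1∆* rose above its own untreated level.

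*COX5B* was at 70.0 and 53.0 FPKM in untreated WT and at 64.3 and 53.6 in untreated *lsm1∆*. At 4 h it was at 127 and 118 FPKM in WT and at 118 and 137 in *lsm1∆*. The strains overlapped at each time, and the log2 ratio was between −0.05 and 0.22 with an SE of 0.21, while both strains rose in HU. The ratio of *COX5A* to *COX5B* was accordingly 1.97 and 2.59 in untreated WT, 0.765 and 0.971 in WT at 4 h, 4.22 and 6.13 in untreated *lsm1∆* and 3.46 and 3.61 in *lsm1∆* at 4 h. The longest run of identical bases in the coding sequences of *COX5A* and *COX5B* was 12.

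**Figure D2:**
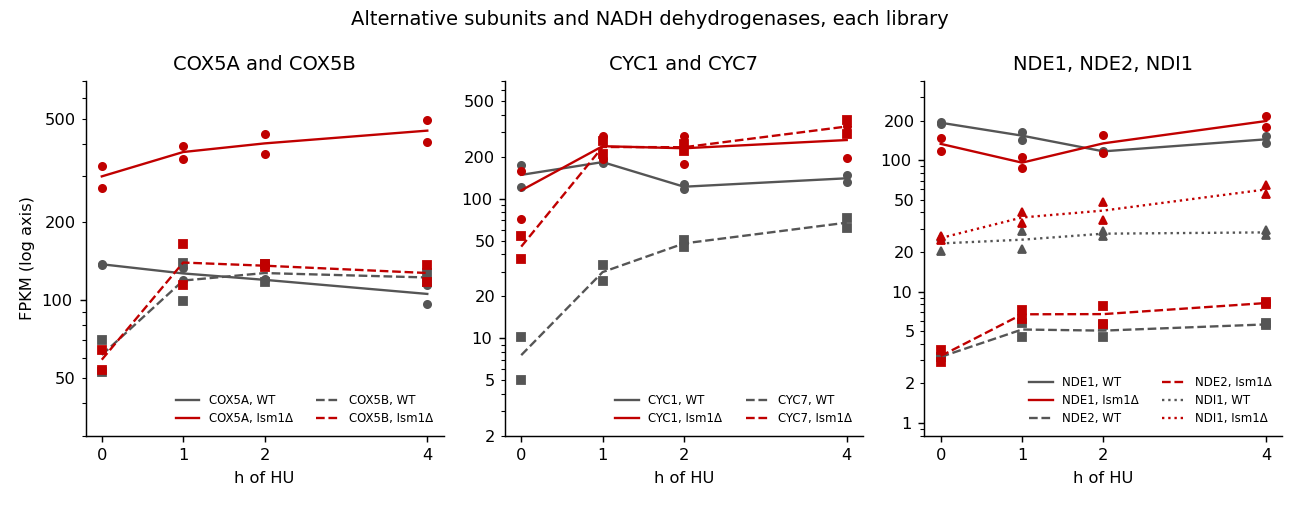
FPKM (log axis) of the isoform pairs *COX5A* and *COX5B*, *CYC1* and *CYC7*, and of the NADH dehydrogenase genes *NDE1*, *NDE2* and *NDI1*, in each library (points) of WT and *lsm1∆* by hours in HU. *COX5B* coincides in the strains while *COX5A* separates to 407 and 494 FPKM in *lsm1∆* against 97.0 and 114 in WT at 4 h, and *CYC7* is higher in *lsm1∆* throughout.

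Among the other cytochrome c oxidase genes, *COX9* (subunit VIIa) was at 649 and 629 FPKM in untreated WT and at 996 and 1302 in untreated *lsm1∆*, and at 4 h at 631 and 658 FPKM in WT and at 2070 and 2834 in *lsm1∆*. The WT level thus stayed within a narrow range while both *lsm1∆* libraries were higher at each time (4 h log2 ratio 1.91 ± 0.15, limma adjusted p = 3.74e-06). *COX7* (1.72 ± 0.17), *COX12* (1.59 ± 0.19), *COX8* (1.43 ± 0.18), *COX13* (1.40 ± 0.13) and *COX6* (1.33 ± 0.20) were also higher at 4 h. *COX4*, the zinc-binding subunit, had the lowest called ratio of the complex (0.71 ± 0.19, limma adjusted p = 0.00826), and lost its call with 1 library left out and after centring (0.28).

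The ATP synthase had the highest share of calls in untreated cells: 13 of 14 genes in untreated cells and 14 of 14 at 1, 2 and 4 h were higher in *lsm1∆*, with medians of 0.75, 1.01, 1.03 and 1.18. Its ratios were nevertheless spread by subunit. *ATP20*, subunit g, which takes part in dimerising the enzyme, was at 117 and 117 FPKM in untreated WT and at 214 and 249 in untreated *lsm1∆* (0.98 ± 0.15, limma adjusted p = 0.00148). At 4 h it was at 96.0 and 84.7 FPKM in WT and at 280 and 352 in *lsm1∆* (1.79 ± 0.15, limma adjusted p = 6.72e-06), the highest of the complex. *ATP7*, subunit d of the peripheral stalk, had the highest ratio in untreated cells, with 191 and 175 FPKM in WT against 348 and 399 in *lsm1∆* (1.02 ± 0.12, limma adjusted p = 0.000346). After 4 h in HU it had 235 and 233 FPKM in WT and 655 and 751 in *lsm1∆* (1.58 ± 0.12, limma adjusted p = 3.16e-06).

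*ATP1* and *ATP2*, which encode the alpha and beta subunits of the catalytic head, had the lowest ATP synthase ratios at 4 h. *ATP1* was at 295 and 300 FPKM in untreated WT and at 341 and 440 in untreated *lsm1∆*, and at 4 h at 424 and 409 FPKM in WT and at 495 and 564 in *lsm1∆*. Its ratio was 0.38, 0.36, 0.36 and 0.34 from 0 to 4 h (each ± 0.12), was called at each time with adjusted p-values from limma between 0.0331 and 0.0401, and lost the call with 1 library left out at each time. After centring it was −0.08 at 4 h, so its direction there depended on the scaling. *ATP1* also overlaps the dubious reading frame YBL100C by 251 bases, and reads of the pair cannot be told apart without strand. *ATP2* was at 437 and 442 FPKM in untreated WT and at 611 and 806 in untreated *lsm1∆*, and its ratio was 0.67, 0.68, 0.71 and 0.67 (each ± 0.13). After centring *ATP2* was called at 0, 1 and 2 h but not at 4 h (0.24, limma adjusted p = 0.167).

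*ATP19*, subunit k, was the 1 ATP synthase gene that was not called in untreated cells. It was at 531 and 532 FPKM in untreated WT and at 471 and 662 in untreated *lsm1∆* (0.07 ± 0.14, limma adjusted p = 0.743), which overlapped. At 4 h it was at 441 and 405 FPKM in WT and at 976 and 1017 in *lsm1∆* (1.24 ± 0.14, limma adjusted p = 3.44e-05). The remaining members of the complex had 4 h ratios between those of *ATP2* and *ATP20*, among them *ATP18*, subunit i/j (1.62 ± 0.14), *ATP3*, the gamma subunit (1.23 ± 0.11), and *TIM11*, subunit e (1.09 ± 0.15).

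In WT cells most members changed little in HU. At 1 h 3 of 41 were called higher than untreated (36% of all genes were), at 2 h 10 were higher and 1 lower (31.1% and 11.9% of all genes), and at 4 h 17 were higher and 1 lower (22% and 26% of all genes). The median log2 change was 0.16, 0.25 and 0.28. After centring the median was −0.08 at 1 h, 0.07 at 2 h and 0.31 at 4 h, with 2, 3 and 18 called higher (14.6%, 18.3% and 23.9% of all genes) and 3 and 2 called lower at 1 and 2 h (17.6% and 20.5% of all genes). The calls as deposited rested on few libraries: they numbered 2 without replicate 2 of untreated WT at 2 h, and 8 without that library or without replicate 1 of WT at 4 h.

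The 3 genes called in WT at all 3 HU times were *COX5B* (0.94, 1.05 and 0.99), *CYC7* (1.90, 2.58 and 3.06) and *NDE2* (0.55, 0.53 and 0.66), which are the low-oxygen or minor isoforms of the set. How many of all genes were called higher at all 3 times was not counted, but it cannot exceed the 22% called at 4 h. *COX5B* and *CYC7* were called at each time after centring as well, while *NDE2* was so only at 4 h and lost its calls at 1 and 2 h as deposited when 1 library was left out. The counterpart *COX5A* was called lower in WT at 4 h (−0.38 ± 0.14, limma adjusted p = 0.0408), a call lost with 1 library left out, while *CYC1* was at −0.06 ± 0.39. *NDE1* was lower at 2 h (−0.72 ± 0.17, limma adjusted p = 0.00657). By complex, the WT genes called higher at 4 h were 5 of 14 in the ATP synthase, 4 of 9 in bc1, 3 of 9 in cytochrome c oxidase and 3 of 4 in succinate dehydrogenase.

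In *lsm1∆* cells 22, 37 and 40 of the 41 genes were called higher than untreated at 1, 2 and 4 h, where 25%, 38.6% and 43.6% of all genes were, and none was called lower. The median log2 change was 0.49, 0.63 and 0.89. After centring 11, 15 and 26 were called higher (13.9%, 18.9% and 23.1% of all genes) and 1 was lower at 1 h, *NDE1* (15.5% of all genes), with medians of 0.33, 0.37 and 0.58. *COX8* was the gene not called at 4 h as deposited (0.39 ± 0.18, limma adjusted p = 0.0842). The largest increases at 4 h were those of *CYC7* (2.85 ± 0.28), *QCR10* (1.94 ± 0.19), *SDH2* (1.63 ± 0.26) and *SDH1* (1.45 ± 0.28). Replicate 1 of untreated *lsm1∆* mattered to these counts: without it 7 genes were called at 1 h and 17 at 2 h, and without replicate 2 of *lsm1∆* at 2 h 16 were called at that time.

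**Figure D3:**
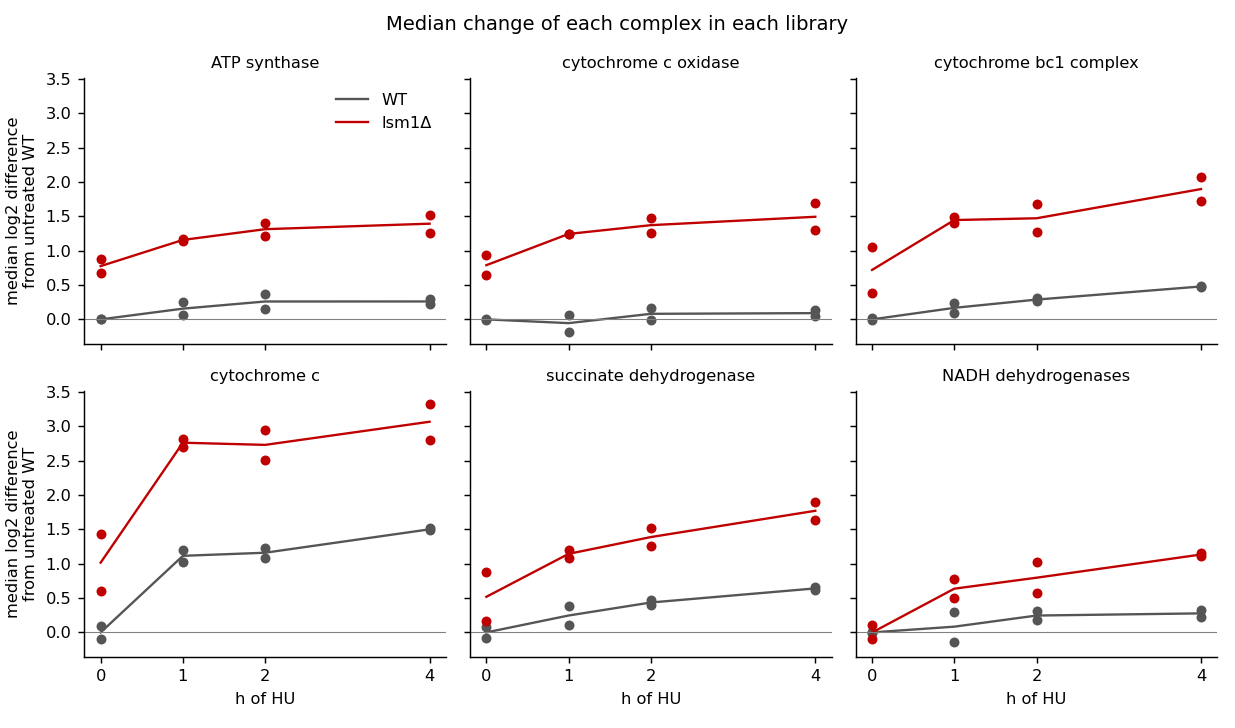
Median log2 difference from the untreated WT mean over the genes of each complex, in each library (points), against hours in HU for WT and *lsm1∆*. For the ATP synthase the 2 *lsm1∆* libraries are at 0.67 and 0.88 untreated and at 1.26 and 1.52 at 4 h, while the WT libraries at 4 h are at 0.30 and 0.22.

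Whether HU changed a gene differently in the strains was tested as the change in *lsm1∆* minus the change in WT. No member was called at 1 h or 2 h by limma, where 0.287% and 1.06% of all genes were called higher. The smallest adjusted p of the members was 0.131 and 0.0608. Without adjustment 10 and 12 members had a limma p below 0.05, but the share of all genes at that threshold was not counted, so these counts cannot be read against it. At 4 h 15 of 41 were called, all with the larger change in *lsm1∆*, and 26.9% of all genes were called in that direction. The median difference was 0.58 for the members and 0.27 for all genes. After centring only *ATP19* was called, where 5.19% of all genes were, and the median was 0.24. The count depended on single libraries: it was 7 without replicate 1 of untreated *lsm1∆*, 24 without replicate 2 of it, 7 without replicate 2 of WT at 4 h and 6 without replicate 2 of *lsm1∆* at 4 h.

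The largest called differences were those of *ATP19* (1.16 ± 0.19, limma adjusted p = 0.00242) and *COX9* (1.08 ± 0.21, limma adjusted p = 0.00488). *ATP19* went from 531 and 532 to 441 and 405 FPKM in WT and from 471 and 662 to 976 and 1017 in *lsm1∆*, so both WT libraries were below and both *lsm1∆* libraries above their strain's untreated level, although the WT change itself was not called (−0.33 ± 0.14, limma adjusted p = 0.0732). *COX9* did not change in WT beyond its error (0.01 ± 0.15) and rose in *lsm1∆* (1.09 ± 0.15). *COX5A* (0.97 ± 0.19, limma adjusted p = 0.00516) and *NDE1* (1.00 ± 0.24, limma adjusted p = 0.0116) were also called with any 1 library left out, as were *ATP4*, *ATP18*, *ATP19* and *COX9*.

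At the other end were *CYC7*, with a difference of −0.21 ± 0.40, *ATP1* with −0.04 ± 0.17, *ATP2* with 0.00 ± 0.19 and *COX5B* with 0.11 ± 0.30. None of these differences was larger than its SE. *CYC1* had the largest difference of all (1.31 ± 0.54) but was not called (limma adjusted p = 0.0969).

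**Figure D4:**
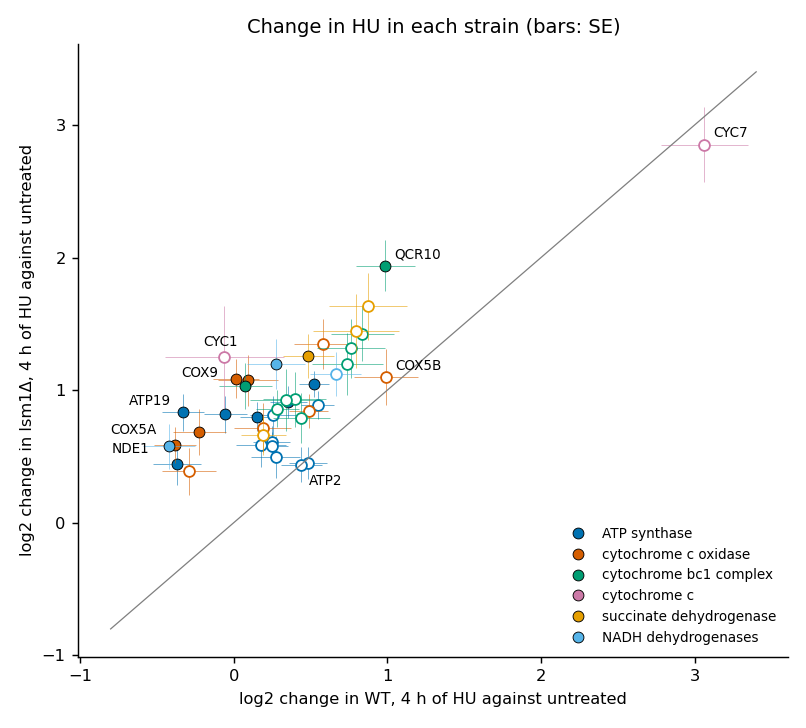
Log2 change after 4 h in HU in WT (horizontal axis) and in *lsm1∆* (vertical axis) for each of the 41 genes, with bars of 1 SE, filled points where the difference between the strains was called and a line at equal change. Most points lie above the line, *CYC7* lies near it at 3.06 and 2.85, and each axis uses that strain's own untreated libraries as the reference.

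Within *lsm1∆* the replicates differed in level for these genes. Replicate 2 was above replicate 1 for 39, 30, 41 and 41 of the 41 genes at 0, 1, 2 and 4 h, with median log2 differences of 0.36, 0.07, 0.24 and 0.28, while 53.6%, 49.1%, 50.1% and 51.1% of all genes were above in the same libraries. In WT replicate 2 was above replicate 1 for 19, 3, 11 and 14 members, with medians of 0.00, −0.17, −0.13 and −0.05, and for 41.1%, 39.5%, 32.1% and 40.5% of all genes. In both strains the members could thus move together between replicates, in opposite directions in *lsm1∆* and in WT at 1 h, and their tests are not independent of one another.

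Gene length moved with the ratio too. The members are short genes, with a median coding length of 456 bases (180 to 1923). The median was 1194 bases for the protein-coding genes tested. For those outside the members, length here and below is the span from start to end of the gene, introns included. Over the 41 members Spearman's rho between length and the log2 ratio of *lsm1∆* to WT was −0.34, −0.54, −0.47 and −0.53 at 0, 1, 2 and 4 h, and over 5908 protein-coding genes −0.38, −0.48, −0.38 and −0.29. These are descriptions across genes that share the same libraries. At 4 h the 27 members of up to 600 bases had a median of 1.36 and the 14 longer ones 1.07, where all genes of these lengths had 0.54 and 0.37. The part of length in the members' ratios was not tested beyond these values.

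Genes that assemble or serve these complexes were counted in the same way, against 22.2%, 23.2%, 32% and 49.8% of all genes called higher at 0, 1, 2 and 4 h, and 16.3%, 23.2%, 20.6% and 21.9% after centring. Among 18 assembly factors of cytochrome c oxidase 10, 11, 16 and 17 were called higher in *lsm1∆* at 0, 1, 2 and 4 h, with medians of 0.48, 0.56, 0.88 and 1.13. After centring 10, 12, 14 and 15 were. The copper chaperone *COX17* was at 237 and 212 FPKM in untreated WT and at 364 and 369 in untreated *lsm1∆*, and its 4 h ratio was 1.54. Of the 12 assembly factors of bc1, cytochrome c and succinate dehydrogenase 8, 9, 9 and 12 were higher, and 7, 8, 8 and 10 after centring, among them *SDH5*, which attaches the flavin to Sdh1 (2.08 ± 0.12 at 4 h). Of 9 genes of coenzyme Q synthesis 5, 7, 9 and 9 were higher, and 3, 6, 8 and 8 after centring. Of 9 ATP synthase assembly factors and inhibitors 3, 4, 6 and 7 were higher, and 3, 4, 6 and 6 after centring. The lowest of them at 4 h, *ATP22*, was not called as deposited (0.13 ± 0.08, limma adjusted p = 0.2). After centring *ATP22* was called lower (−0.30, limma adjusted p = 0.00729).

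For the other lists the shares called at 4 h were at or near that of all genes, or were counts too small to read against it. Of the 8 protein genes listed for mitochondrial DNA, 0, 2, 1 and 3 were called higher, with medians of −0.01, 0.10, 0.08 and 0.27 as deposited and −0.10, 0.10, −0.09 and −0.15 after centring. *COX1*, the core subunit of cytochrome c oxidase, was at 512 and 530 FPKM in untreated WT, 427 and 579 in untreated *lsm1∆*, 543 and 535 in WT at 4 h and 587 and 729 in *lsm1∆* at 4 h. *ATP8* of this list was at 0 in 8 of the 16 libraries, so no ratio is given for it. Whether poly(A) selection was used beside rRNA depletion is not given in the sources used here. Its effect on mitochondrial and on deadenylated mRNAs was not tested, and levels are not compared between the genomes. Of 4 ADP/ATP and phosphate carriers 2, 1, 3 and 3 were higher (0, 1, 2 and 1 after centring), and of 4 other dehydrogenases feeding the chain 0, 0, 0 and 2 (0 at each time after centring). Of 11 translational activators of mitochondrial mRNAs 0, 0, 3 and 5 were higher (0, 0, 1 and 1 after centring), and of 3 paralogues of succinate dehydrogenase subunits none was higher at any time. One of these paralogues, the low-abundance YJL045W, was called lower at 4 h (−0.48 ± 0.18, limma adjusted p = 0.0445), and after centring too (−0.90). After centring the activator *PET122* (−0.62, limma adjusted p = 0.00016) and the dehydrogenase *CYB2* (−0.40, limma adjusted p = 0.0252) were also called lower at 4 h.

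**Figure D5:**
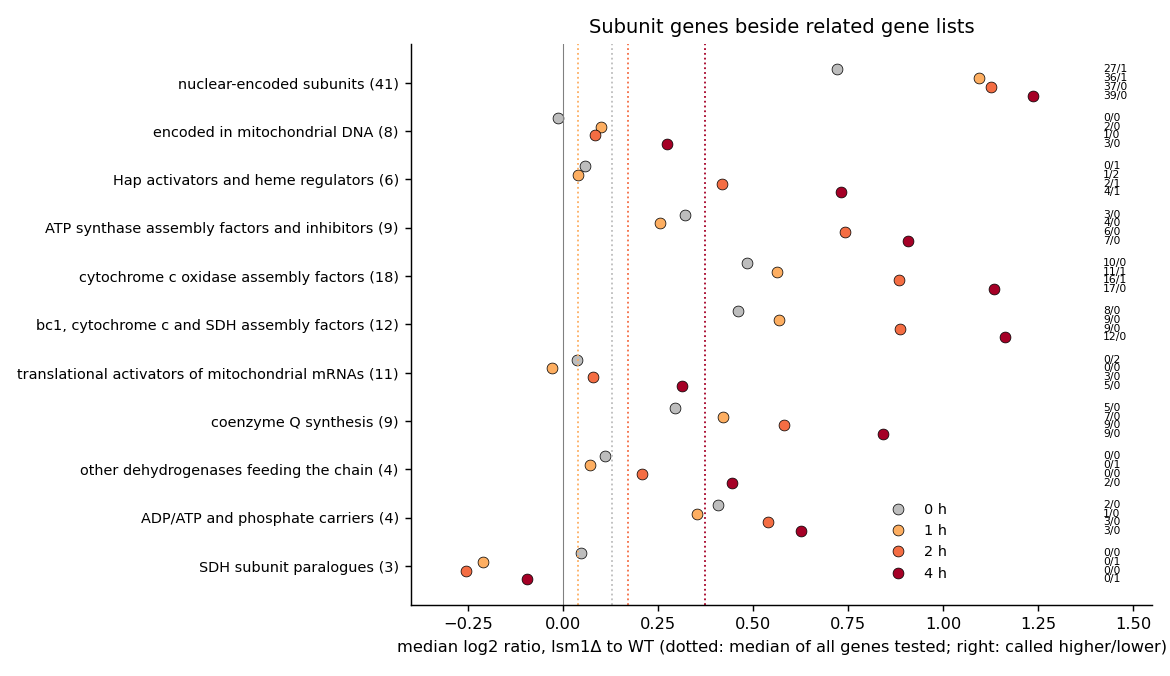
Median log2 ratio of *lsm1∆* to WT at 0, 1, 2 and 4 h for the 41 members and for 10 lists of related genes, with dotted lines at the median of all genes and the numbers called higher and lower at the right. The members have the highest median at each time, from 0.72 to 1.24, and the genes of mitochondrial DNA are between −0.01 and 0.27.

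Of 6 Hap activators and heme regulators 0, 1, 2 and 4 were called higher in *lsm1∆* at 0, 1, 2 and 4 h. Lower were 1, 2, 1 and 1, where 6.32% and 13.8% of all genes were called lower at 0 and 1 h. The shares called lower at 2 and 4 h are not given here, so the lower counts at those times cannot be read against them. After centring 0, 1, 2 and 3 were higher. *HAP4*, the activating and glucose-regulated subunit of the Hap complex, was at 65.4 and 65.2 FPKM in untreated WT and at 62.0 and 64.0 in untreated *lsm1∆*. At 1 h it was at 53.8 and 46.6 FPKM in WT and at 33.4 and 34.2 in *lsm1∆*, and at 4 h at 34.3 and 28.5 in WT and at 69.3 and 79.1 in *lsm1∆*. *HAP4* was not called in untreated cells (−0.05 ± 0.13, limma adjusted p = 0.822), lower in *lsm1∆* at 1 h (−0.55 ± 0.13, limma adjusted p = 0.00956) and higher at 4 h (1.22 ± 0.13, limma adjusted p = 3.22e-05). *HAP1*, a heme-responsive activator whose gene carries a Ty insertion in BY4741, was lower in *lsm1∆* at each time, from −0.46 ± 0.08 to −0.90 ± 0.08.

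A sequence bound by Puf3, an RNA-binding protein that controls many mRNAs for mitochondrial proteins, was sought as TGTANATA on the coding strand in the 200 bases after the stop codon. It occurred in 6 of the 41 members (14.6%; *ATP1*, *ATP18*, *ATP19*, *TIM11*, *COX8* and *SDH1*) and in 14.1% of all genes. It was found in 17 of 18 cytochrome c oxidase assembly factors (94.4%), 10 of 12 assembly factors of the other complexes (83.3%) and 8 of 11 translational activators (72.7%). The sites of *ATP1*, *ATP19* and *ATP18* are shown because these subunits of 1 enzyme had 4 h ratios of 0.34, 1.24 and 1.62, with the motif in capitals.
ATP1, chrII:38729-38758 (+): tcaaaaagaaaTGTAAATAtagaaatttta
ATP19, chrXV:185668-185697 (+): tgaagatctttTGTACATAcaataaatatt
ATP18, chrXIII:103901-103930 (−): ctacatatgttTGTATATAgaaatatattc

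At 4 h the median ratio was 1.16 in the 6 members with TGTANATA and 1.24 in the 35 without, and 0.63 and 0.36 in all genes with and without it. CCAAT, present in 85.4% of the members, was found in 8 of the 18 cytochrome c oxidase assembly factors (44.4%).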

How the data were processed

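RNA had been depleted of rRNA (yeast Ribo-Zero), converted to unstranded TruSeq libraries and sequenced as 50-base reads. Whether poly(A) selection was used as well is not given in the sources used here. Per the labels and methods, the authors aligned reads to sacCer3 with TopHat2 and deposited FPKM per gene from Cufflinks/Cuffdiff (versions not given in the sources used here). Read counts are not in these tables, and short genes depend on the length correction used.

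Here 46 of 7126 genes with a failed estimate were left out, and log2(FPKM + 1) was fitted with limma 3.58.1 in R 4.3.3 (a mean per condition over 16 libraries, empirical Bayes with trend, 1.85 prior degrees of freedom) for the 6977 genes that reached 1 FPKM in 2 or more libraries. Fold changes are on the log2(FPKM + 1) scale and understate the change of low genes. P-values were adjusted over all genes tested for each of 13 comparisons (Benjamini-Hochberg, 0.05, two-sided). Comparisons that share untreated or WT libraries are not independent. Alternatives were another pseudocount, filters, centring, a stricter threshold, fits of only the libraries compared, a replicate block and leaving out each library. The fit was tested on simulated data. Genes named in full were, for each complex, those with the highest and lowest ratio and known isoforms, and all 41 were tabulated. Members, lists and tests were chosen with earlier results of these data known. *ATP14* overlaps YLR294C by 32 bases. Motifs and coordinates were read from RefSeq R64, where all 41 genes lie at the positions in the tables.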

Additional observations from a re-analysis of the deposited data

Results flagged for a closer look

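For 15 of the 41 genes and for the regulators *HAP1* and *HAP4* the change after 4 h in HU differed between the strains by the test of the difference itself (limma, adjusted p below 0.05). All 15 had the larger change in *lsm1∆*, and 26.9% of all genes were called in that direction (5.19% after centring). Values are the log2 change in *lsm1∆* minus that in WT. In the ATP synthase they were 0.65 for *ATP4*, 0.56 for *ATP7*, 0.52 for *ATP16*, 0.87 for *ATP18*, 1.16 for *ATP19* and 0.81 for *ATP20*. In cytochrome c oxidase they were 0.97 for *COX5A*, 0.98 for *COX6*, 0.91 for *COX7* and 1.08 for *COX9*. In the bc1 complex they were 0.96 for *QCR8* and 0.95 for *QCR10*, in succinate dehydrogenase 0.77 for *SDH4*, and among the NADH dehydrogenases 0.92 for *NDI1* and 1.00 for *NDE1*. *HAP4* differed by 1.27 and *HAP1* by −0.44. After centring, *ATP19* (0.83), *HAP4* (0.93) and *HAP1* (−0.77) were still called and the other 14 were not. Groups of 2 libraries were too small for a check of single libraries that stand apart.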

How the results depend on the processing

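Another pseudocount, other filters on low values and the replicate block changed no median by more than the spread between replicates and no count by over 1.5 times. Centring each library on its median gave a median of the members' log2 ratios between the strains of 0.81 at 4 h. It gave median HU changes of −0.081 and 0.069 in WT at 1 and 2 h and of 0.37 and 0.58 in *lsm1∆* at 2 and 4 h, and a median difference between the strains of 0.24 at 4 h. The members called higher were then 2 and 3 in WT at 1 and 2 h, 11, 15 and 26 in *lsm1∆* at 1, 2 and 4 h, and 1 for the difference at 4 h. *ATP1* turned to −0.080 at 4 h between the strains (limma adjusted p = 0.639). Over all alternatives, comparisons and members, 525 values of single genes lost their call, 76 gained one and this 1 called value turned. With fits of only the libraries compared, 13 members were called between untreated strains, 0 in WT at 1 h, and 5 and 16 in *lsm1∆* at 1 and 2 h, where fewer samples estimate the spread. At an adjusted p below 0.01 there were 3 and 9 in WT at 2 and 4 h, 12 and 19 in *lsm1∆* at 1 and 2 h and 4 for the difference at 4 h. The share of all genes called was counted only as deposited and after centring. Counts of members called under the other settings, leaving out a library included, therefore have no such share to be read against.

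With each library left out in turn, an arm of 1 library was assumed to vary like the others. Between the strains 18 to 31, 32 to 34, 31 to 38 and 34 to 39 members were called higher at 0, 1, 2 and 4 h, and the median ranged from 0.51 to 0.89 at 0 h and from 0.90 to 1.21 at 2 h. In WT 2 to 7 and 8 to 13 were called at 2 and 4 h, and in *lsm1∆* 7 to 29 and 16 to 38 at 1 and 2 h. For the difference between the strains the count was 0 to 1 at 2 h and 6 to 24 at 4 h, and the median 0.22 to 0.58, 0.25 to 0.59 and 0.38 to 0.82 at 1, 2 and 4 h. The libraries concerned were mainly both replicates of untreated *lsm1∆*.

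With the replicate block 28, 36, 38 and 40 members were called between the strains, 3, 10 and 18 in WT, 26, 38 and 40 in *lsm1∆*, and 0, 0 and 17 for the difference. Whether same-numbered replicates came from the same culture was not settled. Over all genes tested the correlation of their deviations was between −0.21 and 0.23 over 28 pairs of conditions, and over 0.1 in 8. That correlation is not of the members alone. Of these, 39, 30, 41 and 41 were higher in replicate 2 of *lsm1∆* at 0, 1, 2 and 4 h. The tables give no counts, and depth is known only in relative terms, so the precision of low genes such as *NDE2* is limited.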
